A study of Mus musculus with 2 samples.

Results

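Complement components and regulators were compared between IL-9 transgenic and wild-type mice in RNA of the small intestine. The 9 genes examined were the components C1qa, C1qb, C1qc, C3, C4b and Cfb, the soluble regulator Cfi, and the membrane regulators Cd55 and Cd59a. They were taken by name, with all probe sets annotated to them (a probe set is a group of short probes against one transcript). This gave 14 of the 45101 probe sets on the array, and 7 of the 18194 genes that have a probe set of their own name. C4b shares its single probe set with its near-identical copy C4a, so that value is given for the pair. No probe set carried C3 as a name in the annotation used, and C3 was not analysed here.

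The transgenic group was 1 pool of small intestine RNA from 3 mice carrying an IL-9 transgene, and the wild-type group was 1 pool from 3 mice without it. Both were on the BALB/c background, 6 to 8 weeks old and untreated, and 10 µg of total RNA of each pool was labelled for 1 array. The labels do not name the promoter that drives the transgene or the cells that express it. IL-9 is a type 2 cytokine that supports mast cell growth, and the study's title concerns mast cells, intestinal permeability and hypersensitivity to oral antigen.

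Complement is a cascade of plasma and tissue proteins that tags surfaces and can pierce membranes. C1q, built from the chains encoded by C1qa, C1qb and C1qc, starts the classical pathway and is made mainly by macrophages and dendritic cells. C4 and factor B contribute to the enzymes that cleave C3, and factor I, encoded by Cfi, inactivates the C3 and C4 fragments. Host cells carry CD55, which dissociates those enzymes, and CD59, which blocks the final membrane pore. Epithelial cells of the human intestine display both on their surface.

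With 1 array for each group there was no replicate, no spread between mice and no p-value, and every value is a single measurement of a pool. Values are linear intensities, and differences are log2(intensity + 1) of the transgenic pool minus that of the wild-type pool. The expression filter was an intensity of 78.5 in at least 1 pool, and a gene with several probe sets is represented by the brightest. The median difference over 11862 genes past the filter was 0.0083, and 95% of them lay between -0.49 and 0.50. The log2 differences of probe sets of one gene varied among themselves with an SD of 0.23 over 4965 genes, called the technical SD here. It does not measure spread between mice or pools, and differences between transcripts of one gene can enter it. The 3′ to 5′ intensity ratio, a sign of RNA integrity, was 1.33 in transgenic tissue, against 1.61 in wild-type tissue for actin, and for Gapdh 1.08 in transgenic tissue, against 1.22 in wild-type tissue. Il9 itself read 62.2 in transgenic tissue, against 71.6 in wild-type tissue, below the filter in both, so the array does not check the labels.

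Among the membrane regulators, Cd55 was higher in the transgenic pool and Cd59a differed by less than the technical SD. Cd55 was the only member past 2-fold in either direction. Of the 7 members with a probe set of their own, all past the filter, 1 was higher by 2-fold, beside 72 of 11862 genes (0.607%). None (0) was lower by 2-fold, beside 24 of 11862 genes (0.202%). The members were chosen with earlier results of these data known, so these counts are no test of the group. The remaining 6 members differed by less than 2-fold, with values between -0.37 and 0.12.

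Cd55 encodes decay-accelerating factor, a lipid-anchored protein that limits complement enzymes on the cell that bears it. Its brightest probe set, 1460242_at, read 1970 in transgenic tissue, against 608 in wild-type tissue. This is a log2 difference of 1.69, or 3.24-fold, and ranked 26 from the highest of 11862 genes. A second probe set, 1418762_at, read 371 in transgenic tissue, against 139 in wild-type tissue, a log2 difference of 1.41 or 2.66-fold. These probe sets differed from each other by 0.29, close to the technical SD. The third, 1443906_at, read 65.5 in transgenic tissue, against 47.3 in wild-type tissue, a difference of 0.46 with both readings below the filter. A probe set shared with the paralog Cd55b read 8.04 in transgenic tissue, against 6.72 in wild-type tissue, far below the filter. All 4 probe sets annotated to Cd55 were higher in the transgenic pool, and those past the filter were both past 2-fold. The mean over the probe sets named for Cd55 alone was 1.19.

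Cd59a encodes the main mouse form of CD59, which binds the late components and blocks assembly of the pore. Its brightest probe set, 1418710_at, read 476 in transgenic tissue, against 502 in wild-type tissue, a log2 difference of -0.08. The other, 1429830_a_at, read 358 in transgenic tissue, against 360 in wild-type tissue, a difference of -0.01. Both lay within the technical SD, and 70.9% of all genes past the filter differed by at least as much as the brightest one, in either direction. The plot of probe set levels shows the separation between these regulators.

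**Figure D1:**
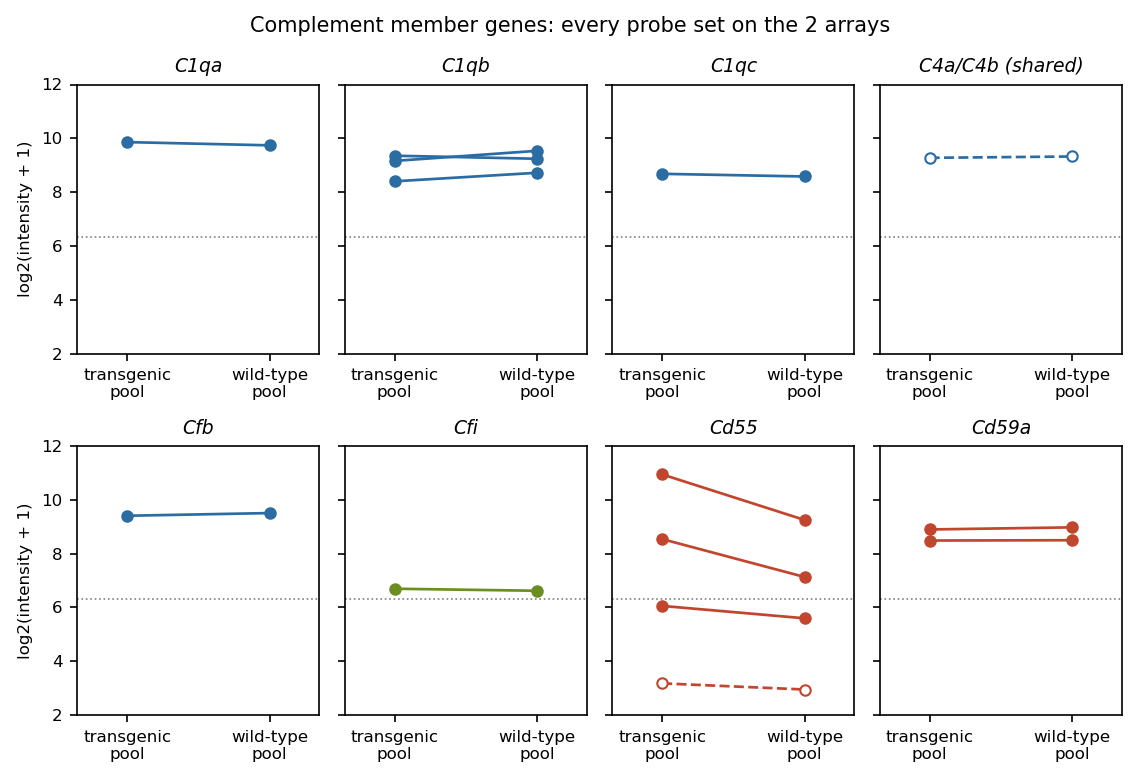
Levels of every probe set annotated to the measured genes, as log2(intensity + 1), with the transgenic pool on the left and the wild-type pool on the right of each panel. Blue marks components, green the soluble regulator and red the membrane regulators, open symbols with dashed lines are probe sets shared with another gene, and the dotted line is the expression filter at 6.31. Only the lines of the Cd55 probe sets past the filter slope steeply, with the brightest at 1970 in transgenic tissue, against 608 in wild-type tissue.

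The reference sequences before the start sites of these regulators are shown because one gene differed between the pools by over 2-fold and the other by less than the technical SD. They come from RefSeq, build GRCm38.p6, of the C57BL/6J strain rather than BALB/c, and each is the 250 bases before the start that the table gives, written 5′ to 3′ along the gene. Cd55 lies on the minus strand at chr1:130462745-130462994 and Cd59a on the plus strand at chr2:104095551-104095800. Capitals mark matches on either strand to any of 5 motifs, namely the STAT site TTCNNNGAA, the GC box GGGCGG, the box known as CCAAT, the TATA box with the letters TATAAA, and the core bound by PU.1, GAGGAA, none of which overlap here.
Cd55: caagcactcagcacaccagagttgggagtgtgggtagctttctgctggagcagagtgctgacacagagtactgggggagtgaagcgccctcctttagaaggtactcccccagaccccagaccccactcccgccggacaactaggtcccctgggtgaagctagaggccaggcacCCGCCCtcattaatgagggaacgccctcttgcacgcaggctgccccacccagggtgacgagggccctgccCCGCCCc
Cd59a: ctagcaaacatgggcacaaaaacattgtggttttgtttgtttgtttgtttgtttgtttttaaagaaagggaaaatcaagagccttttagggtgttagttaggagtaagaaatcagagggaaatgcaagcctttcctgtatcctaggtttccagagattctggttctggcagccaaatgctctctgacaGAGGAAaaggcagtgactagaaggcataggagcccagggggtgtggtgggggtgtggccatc
The Cd55 stretch held 2 GC boxes, beginning 77 and 7 bases before the start, and no match to the other motifs. GC boxes were present in 32.7% of 32851 such stretches in the table. Its base composition was 64% G or C with 8 CpG pairs, beside medians of 52.4% and 6 over the table. The Cd59a stretch held 1 GAGGAA, 62 bases before the start, a motif found in 23.3% of stretches, and was 44.8% G or C with 0 CpG pairs. Neither held the STAT motif, which 7.02% of stretches held. These are matches of letters only and say nothing of binding.

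In the gene order of the same assembly, Cd55 lies on chromosome 1 beside Cd55b, with C4bp 2 protein-coding genes away. Cd46, Cr1l and Cr2, other regulators and receptors of the family, are neighbours of one another on the same chromosome. Cd55b, a paralog of Cd55, read 9.75 in transgenic tissue, against 7.80 in wild-type tissue on its own probe set, below the filter. C4bp, the soluble inhibitor of C4, read 64.6 in transgenic tissue, against 56.0 in wild-type tissue, also below the filter, with a difference of 0.20. Cr1l, which encodes the rodent regulator Crry, read 1162 in transgenic tissue, against 1035 in wild-type tissue, a difference of 0.17. A second probe set of Cr1l past the filter lay at -0.53, so no direction is given for it. None of these 3 genes was past 2-fold.

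C1qa and C1qc differed between the pools by less than the technical SD, and no chain was past 2-fold. C1qa, 1417381_at, read 927 in transgenic tissue, against 853 in wild-type tissue, a log2 difference of 0.12. C1qc, 1449401_at, read 409 in transgenic tissue, against 382 in wild-type tissue, a difference of 0.10. These chains are made in the same cells and assemble into one protein, and their differences lay 0.02 apart.

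C1qb depended on the probe set. The probe set 1417063_at read 653 in transgenic tissue, against 603 in wild-type tissue, a log2 difference of 0.11 like those of the other chains. The probe set 1437726_x_at read 571 in transgenic tissue, against 741 in wild-type tissue, a difference of -0.37. The probe set 1434366_x_at read 337 in transgenic tissue, against 420 in wild-type tissue, a difference of -0.32. The suffix _x_at marks probe sets with probes that can match other transcripts, and the 3 probe sets spanned 0.49, on both sides of 0. The brightest was 1437726_x_at, which stood for the gene in the counts above, and no direction is given for C1qb.

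C1qb, C1qc and C1qa are consecutive protein-coding genes on chromosome 4. The table held a stretch before the start for C1qb and C1qc, shown as neighbours with capitals as above. Their unsuffixed probe sets differed by 0.11 and 0.10, within the technical SD, while the suffixed ones of C1qb lay below 0. C1qb lies on the minus strand at chr4:136886201-136886450 and C1qc on the minus strand at chr4:136892915-136893164.
C1qb: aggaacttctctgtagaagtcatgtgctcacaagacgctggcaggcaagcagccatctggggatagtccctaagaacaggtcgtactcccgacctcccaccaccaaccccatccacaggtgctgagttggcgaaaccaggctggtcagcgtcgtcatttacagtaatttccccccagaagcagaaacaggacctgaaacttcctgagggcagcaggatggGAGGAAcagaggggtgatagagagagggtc
C1qc: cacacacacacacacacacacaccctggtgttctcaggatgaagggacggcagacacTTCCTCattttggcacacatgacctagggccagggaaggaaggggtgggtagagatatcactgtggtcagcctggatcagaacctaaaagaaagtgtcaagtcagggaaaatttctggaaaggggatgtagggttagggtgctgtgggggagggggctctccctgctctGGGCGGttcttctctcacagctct
Each stretch held 1 match to GAGGAA or its reverse complement, beginning 30 bases before the start in C1qb and 193 bases before it in C1qc. C1qc also held a GC box, 24 bases before the start. G and C made up 55.2% of the C1qb stretch and 54% of that of C1qc.

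Macrophage markers were set beside the C1q values. Of 10 markers 9 passed the filter, 0 were past 2-fold, 4 lay above 0 and 5 below, and the median difference was -0.05. Their summed intensity was 6356 in transgenic tissue, against 7035 in wild-type tissue, with none at 0 and Cd163 below the filter. Csf1r, the growth factor receptor of macrophages, read 2146 in transgenic tissue, against 2101 in wild-type tissue. Lyz2, a lysozyme, read 1995 in transgenic tissue, against 2586 in wild-type tissue, and most of the gap between the sums lay in Lyz2. In RNA from whole tissue, fewer cells of a type and less RNA per cell cannot be told apart.

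Among the enzyme-forming components, Cfb, the protease of the alternative pathway, read 678 in transgenic tissue, against 727 in wild-type tissue, a log2 difference of -0.10. The probe set shared by C4a and C4b read 618 in transgenic tissue, against 640 in wild-type tissue, a difference of -0.05. Cfi, the soluble protease that degrades C3 and C4 fragments, read 103 in transgenic tissue, against 97.3 in wild-type tissue, a difference of 0.08 close to the filter. All 3 lay within the technical SD. The hepatocyte markers, given because the liver is the main source of circulating complement, had 3 of 8 members past the filter. Of these, 1 was higher by 2-fold, beside 0.607% of all genes past the filter. Alb, albumin, read 75.3 in transgenic tissue, against 63.6 in wild-type tissue, below the filter, and Apoh, the member past 2-fold, read 233 in transgenic tissue, against 98.6 in wild-type tissue. Ttr, transthyretin, differed by -0.06, with a second probe set past the filter at -0.41. The summed intensity of the list was 655 in transgenic tissue, against 520 in wild-type tissue, and nearly all of that gap lay in Apoh. The other 2 members past the filter were below 0. Interferon response genes, given because interferons are known inducers of Cfb and C4b, had 0 of 6 past 2-fold and went both ways, from -0.66 in Ifit1 to 0.56 in Irgm1 around a median of 0.08, and summed to 7760 in transgenic tissue, against 7467 in wild-type tissue. The brightest of them were Psmb8, an immunoproteasome subunit, at 0.16, with a second probe set at -0.53, and Irf1, a transcription factor, at 0.09.

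**Figure D2:**
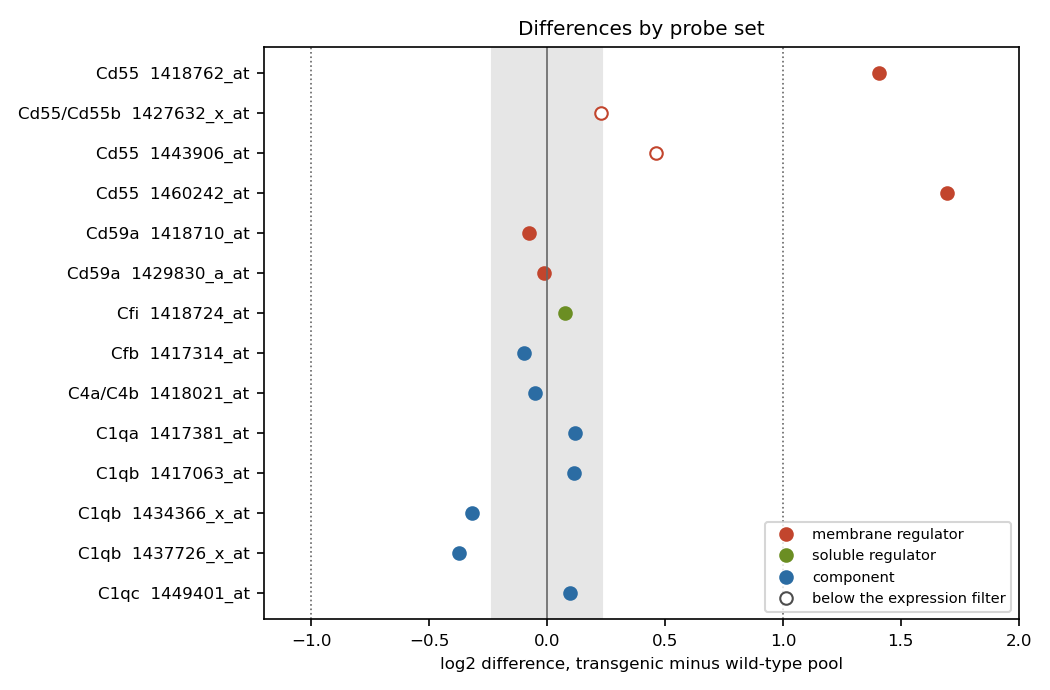
Log2 differences, transgenic minus wild-type pool, of the 14 probe sets annotated to the members, by gene and probe set. Red marks membrane regulators, green the soluble regulator and blue the components. Open symbols are below the expression filter, the grey band is the technical SD of 0.23 to each side of 0, and dotted lines are 2-fold. Cd55 probe sets past the filter lie at 1.41 and 1.69, all others between -0.37 and 0.46, and those of C1qb fall on both sides of 0.

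Set against each other, the membrane regulators were at 1.69 for Cd55 and -0.08 for Cd59a, and the 4 components with a probe set of their own ran from -0.37 to 0.12. The component median was -0.00045, beside 0.0083 over all genes. The midpoint of the pair of membrane regulators was 0.81, a value that neither gene had and that rested on Cd55. Cd59a lay inside the range of the components, and Cd55 alone lay above it. With the C4a and C4b probe set added, an alternative chosen after seeing the data, the component median was -0.05.

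**Figure D3:**
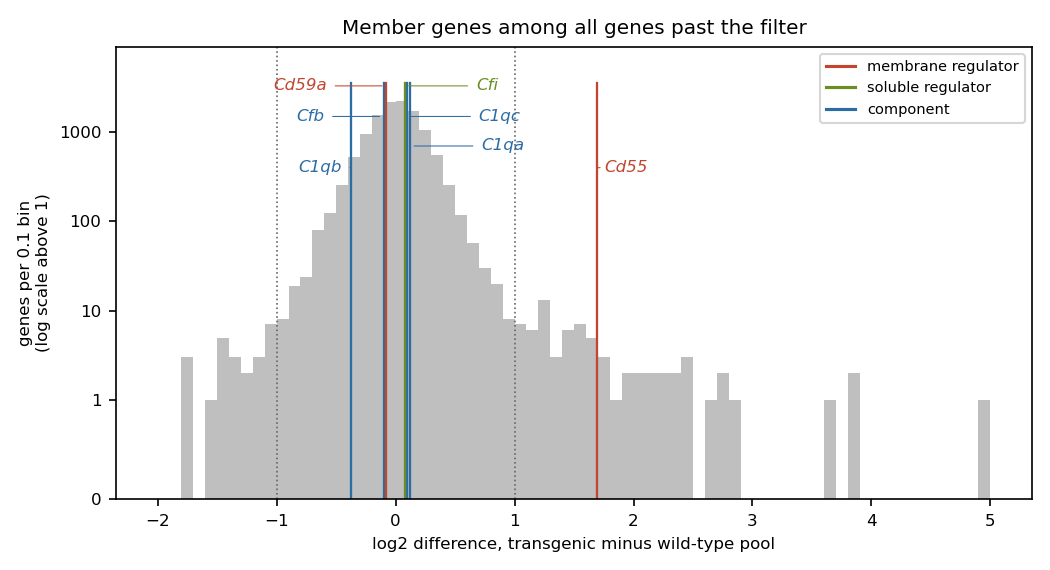
Distribution of log2 differences over the 11862 genes past the filter, in bins of 0.1, with the number of genes on an axis that is logarithmic above 1. Vertical lines are the 7 members with a probe set of their own, blue for components, green for the soluble regulator and red for membrane regulators, and dotted lines are 2-fold. Cd55 stands at 1.69 among the 72 genes higher by 2-fold, and the other members lie between -0.37 and 0.12 in the body of the distribution.

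Epithelial and goblet cell markers were set beside Cd55. Epithelial markers had 0 of 7 past 2-fold, 6 below 0 and a median of -0.21, and summed to 50067 in transgenic tissue, against 55536 in wild-type tissue. Krt8, a keratin of simple epithelium, read 14562 in transgenic tissue, against 16833 in wild-type tissue, and Krt20, another keratin, differed by -0.21. Krt18, also a keratin, went the other way, at 2618 in transgenic tissue, against 1944 in wild-type tissue, a difference of 0.43. Cdx2, counted below 0 at -0.37, had another probe set past the filter at 0.32, so no direction is given for it. Goblet cell markers also had 0 of 7 past 2-fold, 4 above 0, values from -0.22 to 0.87 and a median of 0.09, and summed to 75883 in transgenic tissue, against 71049 in wild-type tissue. Tff3, a trefoil peptide, read 15428 in transgenic tissue, against 15474 in wild-type tissue, while Zg16, a secreted lectin, read 17851 in transgenic tissue, against 20728 in wild-type tissue. Of the other goblet cell markers, Clca1 was at 0.87, Spdef at 0.84 and Agr2 at 0.66 on their brightest probe sets. Muc2 was at 0.09 and Fcgbp at -0.15. Clca1 was at 1.02 as the mean of its probe sets, past 2-fold. The higher goblet cell sum rested on Clca1, which read 14609 in transgenic tissue, against 7966 in wild-type tissue. The log2 difference of Cd55 was larger than that of every marker on these lists, and the cells that carry it cannot be read from RNA of whole tissue. The part of these cell types in the Cd55 value was not tested.

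Of 49 other complement genes listed, 39 had a probe set of their own name and 23 passed the filter. None (0) was higher by 2-fold, beside 72 of 11862 genes (0.607%), and 1, Cr2, was lower, beside 24 of 11862 genes (0.202%). The median was 0.07, beside 0.0083 over all genes past the filter. Of the 23 genes, 3 reached it in the transgenic pool only and 1, Cr2, in the wild-type pool only.

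Among the classical and lectin pathway proteins 0 of 9 past the filter differed by 2-fold and the median was -0.02. The largest differences were in Mbl2, a mannose-binding lectin that starts the lectin pathway, which read 718 in transgenic tissue, against 1130 in wild-type tissue, or -0.65. Colec11, a collectin, followed at 79.2 in transgenic tissue, against 61.8 in wild-type tissue, or 0.35, and reached the filter in the transgenic pool only. C1ra and C1s1, the proteases that sit on C1q, differed by 0.06 and 0.13. C2, which lies next to Cfb on chromosome 17 and supplies the classical counterpart of factor B, differed by -0.13, with its 3 probe sets between -0.24 and -0.13. Cfp, properdin, the stabiliser of the alternative pathway enzyme, read 127 in transgenic tissue, against 178 in wild-type tissue, a difference of -0.48, while its other probe set lay at -0.17. In the terminal pathway C6 differed by 0.32 and C8g by -0.10, and the other 4 genes measured were below the filter.

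Among the soluble regulators past the filter, Clu was lower and Serping1 was slightly higher in the transgenic pool. Clu, clusterin, a chaperone that binds the terminal complex, read 588 in transgenic tissue, against 1090 in wild-type tissue on its brightest probe set, a log2 difference of -0.89 and short of 2-fold. Its 4 probe sets all lay below 0, from -1.43 to -0.88, and their mean of -1.09 was past 2-fold. All 4 carry suffixes of probe sets that can match several transcripts. Serping1, the inhibitor of the C1 proteases, read 942 in transgenic tissue, against 785 in wild-type tissue, a difference of 0.26. The other membrane regulators had 0 of 4 past 2-fold and a median of 0.12, with Cd46 at 0.37, reaching the filter in the transgenic pool only at 78.7, against 60.8 in wild-type tissue.

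Among receptors, 1 of 5 past the filter was lower by 2-fold, beside 0.202% of all genes past the filter. Cr2, the receptor for C3 fragments on B cells and follicular dendritic cells, read 29.0 in transgenic tissue, against 98.3 in wild-type tissue, a log2 difference of -1.73. The transgenic reading was below the filter, so the size of the fold is uncertain. Of the 49 listed genes 0 were lower by 2-fold when suffixed probe sets, of which that of Cr2 is one, were left out, or when the filter was raised to the 75th percentile. Itgax, a chain of an integrin receptor for C3 fragments, read 440 in transgenic tissue, against 351 in wild-type tissue, a difference of 0.33. C3ar1, the receptor for the fragment C3a, had 3 probe sets past the filter between 0.05 and 0.42. Markers of B cells and follicular dendritic cells, among them Cr2 itself, were lower beside Cr2 and Clu. All 6 measured lay below 0 with a median of -0.73. Of these, 2, Ms4a1 and Cr2, were lower by 2-fold, beside 0.202% of all genes past the filter. Of the 6, Ms4a1, Cr2 and Fcer2a reached the filter in the wild-type pool only, so both genes past 2-fold entered through the pool in which they were brighter. Their summed intensity was 711 in transgenic tissue, against 1263 in wild-type tissue. Cd79a, a chain of the B cell receptor, read 234 in transgenic tissue, against 300.3 in wild-type tissue, and Cxcl13, the chemokine of follicles, read 168 in transgenic tissue, against 301 in wild-type tissue. The other probe set of Cxcl13 read 66.2 in transgenic tissue, below the filter, against 224 in wild-type tissue, a difference of -1.75. As the mean of its probe sets, Cxcl13 was at -1.29, past 2-fold. The part of these cells in the Cr2 and Clu values was not tested.

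**Figure D4:**
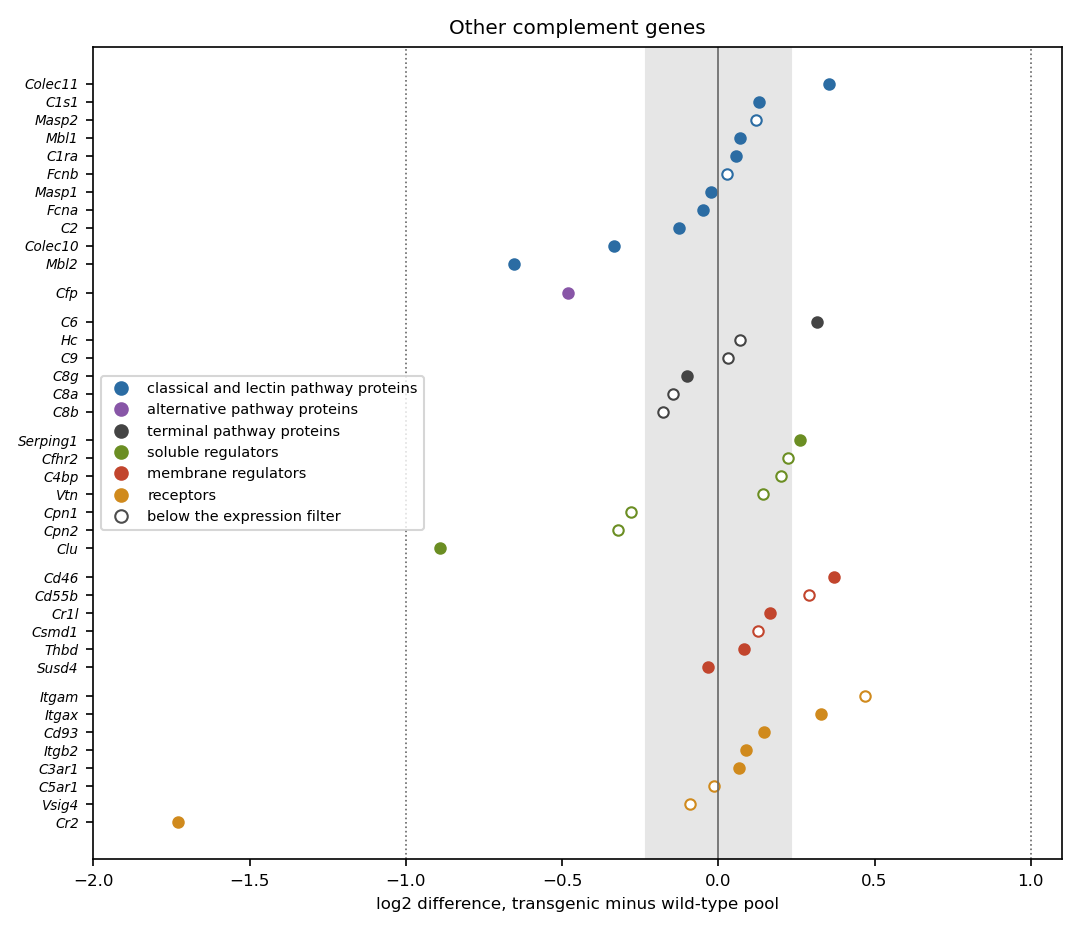
Log2 differences, transgenic minus wild-type pool, of the 39 other complement genes with a probe set of their own name, by role and in order of size within a role. Open symbols are below the expression filter, the grey band is the technical SD of 0.23 to each side of 0, and dotted lines are 2-fold. Cr2 at -1.73 is the only gene past 2-fold, followed by Clu at -0.89 and Mbl2 at -0.65, and the highest is Itgam at 0.47, below the filter.

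Stromal cells and adipocytes also make complement proteins, and their markers were set beside the members. Fibroblast and stroma markers had 0 of 7 past 2-fold and a median of 0.04, and summed to 11742 in transgenic tissue, against 11125 in wild-type tissue. Col3a1, a collagen chain, read 4375 in transgenic tissue, against 3590 in wild-type tissue, and Dcn, decorin, differed by -0.13. The higher sum of this list rested on Col3a1. Adipocyte markers had 1 of 5 past the filter higher by 2-fold, Adipoq, beside 0.607% of all genes past the filter. Adipoq reached the filter in the transgenic pool only at 91.9, against 14.3 in wild-type tissue. The median of these 5 was 0.44, and the list summed to 1951 in transgenic tissue, against 1450 in wild-type tissue. Fabp4, a fatty acid-binding protein, read 622 in transgenic tissue, against 457 in wild-type tissue, and its other probe set past the filter lay at 0.07. Cidec, a lipid droplet protein, differed by 0.21.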

How the data were processed

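Trizol-extracted small intestine RNA, as 1 pool from 3 transgenic and 1 pool from 3 wild-type mice, was labelled with biotin and put on 1 Affymetrix array per pool, per the labels' protocols. The values the authors deposited are probe set intensities on a linear scale, with RMA named in the submitters' processing notes. RMA equalises array distributions, so a change common to most genes would not be seen. The build and version of the chip annotation were not given in the sources used here, nor were detection calls, and 1 array for each group limits the precision.

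Names came from the platform's annotation, in which 34958 probe sets carried 1 symbol, 932 several and 9211 none, and 34754 matched the RefSeq table of GRCm38.p6 by Entrez identifier. Groups follow the source in the labels. A pseudocount of 1 was used, which understates the fold of dim genes, and the filter was the median of all log2 values, 6.31. No test was run. The genes named were all members, the 2 largest differences past the filter in each role list and the 2 brightest of each marker list, and any others were picked with their values known. The members and all lists were chosen with earlier results of these data known. Alternatives were the mean over probe sets, leaving out suffixed probe sets, a pseudocount of 16, quantile normalization, other filters and 1.5-fold. The computation, in Python 3.11.15 with pandas 2.3.3, was tested on simulated data.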

Additional observations from a re-analysis of the deposited data

How the results depend on the processing

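Of 65 values recomputed under the alternatives, 55 moved by less than the technical SD of 0.23 or, for counts, by less than 1.5 times. Some of the 55 could not move. C1qa, C1qc, Cfb and Cfi have 1 probe set each, without a suffix, so averaging or leaving out suffixed probe sets changes nothing. Quantile normalization repeats an equalising step of RMA. No value past 2-fold changed sign. As the mean over probe sets, Cd55 was at 1.19 and the midpoint of the membrane regulators at 0.57. Probe sets of Cd55 with smaller differences enter the mean, namely 1418762_at at 1.41 and 1443906_at, below the filter, at 0.46. Without probe sets carrying a suffix, C1qb was at 0.11, since only 1417063_at remained. The number of other complement genes lower by 2-fold was 2 with the mean over probe sets, Cr2 and Clu. It was 0 without suffixed probe sets, which removes all probe sets of both, and 0 when the filter was set to the 75th percentile, which removes Cr2. At 1.5-fold it was 3, with Mbl2 added. Over all genes, 199 were higher and 172 lower at 1.5-fold, and 15 were lower by 2-fold under the 75th percentile filter. No paired analysis was possible because each group is 1 pool, and no replicate could be left out. Signal near background limits what can be said of Cfi, C4bp, Cr2 and the terminal components other than C6.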
